A study of Mus musculus with 30 samples.

Results

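This section sets 2 libraries of DKO cells against 2 libraries of IRF1KO cells, all of the mouse dendritic cell line DC3.2 and all harvested after 2 h with interferon gamma (IFNγ) at 2 ng/mL. They are 4 of the 30 libraries of the study and were taken by genotype and treatment, not by any measured value. In DKO cells the genes of both interferon regulatory factors IRF1 and IRF2 are targeted, and in IRF1KO cells that of IRF1 alone. The contrast addresses what the loss of IRF2 goes with in cells that already lack IRF1. Other libraries used here are DKO and IRF1KO cells kept for 2 h in media alone or with IFNα at 5000 U/mL, and IRF2KO and WT cells after 2 h with the same IFNγ dose, with 2 libraries in each group. The titles of the single knockout libraries carry "sg" after the factor's name and those of WT cells "nosg". No control for the targeting is named, and the sources used here do not say whether a line is 1 clone or a pool, so effects of the line and of the missing gene cannot be told apart. Whether the 2 libraries of a group were grown apart is not stated, and all p-values therefore rest on a spread between libraries that may be technical.

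IRF1 and IRF2 are transcription factors with closely related DNA-binding domains that recognise the same interferon-stimulated response elements and IRF elements in promoters. IRF1 is made in response to interferon, above all IFNγ, and activates genes of antigen presentation, cell-autonomous defence and cell death. IRF2 is present in resting cells and was first described as a competitor of IRF1 that represses interferon-responsive promoters, but it also activates other genes, Gsdmd in mouse macrophages among them.

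Because genes that moved in both directions can carry such elements, promoter stretches of 4 genes that were higher in DKO cells (Gbp2, Gbp3, Gbp7 and Tmem140) and 4 that were lower (Erap1, Psme1, Ctso and Ddx58) are shown. All 8 were chosen, after their values were seen, as genes with a core element near the start. Each runs from 100 bases before a RefSeq transcription start to 30 bases from it, 130 bases in all, on the strand of the gene (RefSeq, GRCm38.p6). In Erap1 and Gbp3 the start used lies inside the RefSeq gene span. Those spans begin upstream of it, at chr13:74639573 and chr3:142560016. Capitals mark the core of such an element, GAAA repeated after any 2 bases, or on the other strand TTTC repeated after any 2 bases. The stretches lie at chr3:142620563-142620692, chr3:142559944-142560073, chr3:142530236-142530365, chr6:34863046-34863175, chr13:74639753-74639882, chr14:55578394-55578523 and chr3:81932501-81932630 on the plus strand and at chr4:40239796-40239925 on the minus strand.
Gbp2: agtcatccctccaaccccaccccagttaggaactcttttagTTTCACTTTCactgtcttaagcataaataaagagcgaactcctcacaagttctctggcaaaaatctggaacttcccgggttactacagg
Gbp3: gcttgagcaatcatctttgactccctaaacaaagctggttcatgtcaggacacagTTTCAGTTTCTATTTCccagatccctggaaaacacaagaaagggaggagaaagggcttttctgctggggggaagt
Gbp7: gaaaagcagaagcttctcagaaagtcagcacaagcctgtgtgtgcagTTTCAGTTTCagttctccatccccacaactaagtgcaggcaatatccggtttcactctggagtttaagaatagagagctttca
Tmem140: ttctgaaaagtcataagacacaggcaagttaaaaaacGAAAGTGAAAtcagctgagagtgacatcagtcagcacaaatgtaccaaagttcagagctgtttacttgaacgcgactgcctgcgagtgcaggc
Erap1: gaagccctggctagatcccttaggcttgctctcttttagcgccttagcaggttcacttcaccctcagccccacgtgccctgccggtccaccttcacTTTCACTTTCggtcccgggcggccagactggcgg
Psme1: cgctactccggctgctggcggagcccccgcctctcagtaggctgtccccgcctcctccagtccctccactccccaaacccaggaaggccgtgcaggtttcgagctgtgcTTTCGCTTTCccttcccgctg
Ctso: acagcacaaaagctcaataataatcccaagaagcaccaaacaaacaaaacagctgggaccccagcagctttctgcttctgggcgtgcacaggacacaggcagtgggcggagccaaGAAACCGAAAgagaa
Ddx58: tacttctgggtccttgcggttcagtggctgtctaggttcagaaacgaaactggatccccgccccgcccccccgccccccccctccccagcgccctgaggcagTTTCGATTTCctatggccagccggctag
Counted from the start used for each stretch, the core began at position −59 in Gbp2, −45 and −39 (overlapping cores) in Gbp3, −53 in Gbp7 and −63 in Tmem140. It began at −4 in Erap1, 9 in Psme1, 15 in Ctso and 2 in Ddx58, where 0 is the start base. Over windows of 300 bases, with 250 before the start, the core was found in 6 of the 24 genes called higher that have a RefSeq window (25.0%) and in 9 of 48 called lower (18.8%), against 334 of 8476 genes tested (3.94%). The letters TTCNNNGAA, the core of a gamma-activated site, were found in 5 of those 24 genes (20.8%) and 6 of those 48 (12.5%), against 722 of 8476 (8.52%). The 6 genes called higher with the GAAA core include Gbp2, Gbp3 and Gbp7, related genes of a single family. They are therefore not 6 unrelated cases. A match only says that the letters are there.

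The levels of the targeted genes do not check the labels, since an edited gene can still be transcribed. Irf2 had 17.6 and 21.5 TPM in DKO cells, against 22.9 and 23.7 TPM in IRF1KO cells (log2 fold change −0.25 ± 0.14, SE, adjusted p = 0.672). Irf1 had 592.6 and 631.5 TPM in DKO cells, against 733 and 618 TPM in IRF1KO cells (−0.14 ± 0.17, adjusted p = 0.904). In media Irf1 had 28.1 and 36.0 TPM in DKO cells, against 30.6 and 23.6 TPM in IRF1KO cells, so Irf1 mRNA was higher with IFNγ in both lines. Of the signalling genes upstream, none of 22 interferon receptor and JAK-STAT genes was called in limma, with 1 at an unadjusted p under 0.05. In the IRF family, none of 16 genes was called (1 at an unadjusted p under 0.05); Irf8 had 261 and 328 TPM in DKO cells and 298 and 391 TPM in IRF1KO cells.

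After 2 h with IFNγ, 7 guanylate-binding protein genes were higher in DKO than in IRF1KO cells, while Gsdmd, Acadl, Ctso, Nmi, the peptide handling genes Erap1 and Tap2 and 3 proteasome genes were lower. Of 11842 genes tested, 97 (0.819%) were called at an adjusted p under 0.05, 32 higher (0.27%) and 65 lower (0.549%) in DKO cells. In all 97, both libraries of one genotype lay above both of the other, which held for 3745 genes (31.6%) whether called or not. The difference was at least 2-fold on the log2(TPM + 1) scale, which understates the change of low genes, in 20 of the 32 higher and in 45 of the 65 lower. The median over all genes was −0.01 on the log2 scale, and 1028 genes (8.68%) were at an unadjusted p under 0.05. That share is the background for such counts in each gene list of this contrast. With the replicate number as a block 270 genes were called (2.28%), 124 higher and 146 lower, among them all 97. With the 4 libraries fitted alone, which leaves 2 residual degrees of freedom, 1 gene (Gbp2) was called. Without IRF1KO replicate 1 the count was 59, and without IRF1KO replicate 2 it was 47; 38 of the 97 calls were kept whichever of the 4 libraries was left out.

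**Figure D1:**
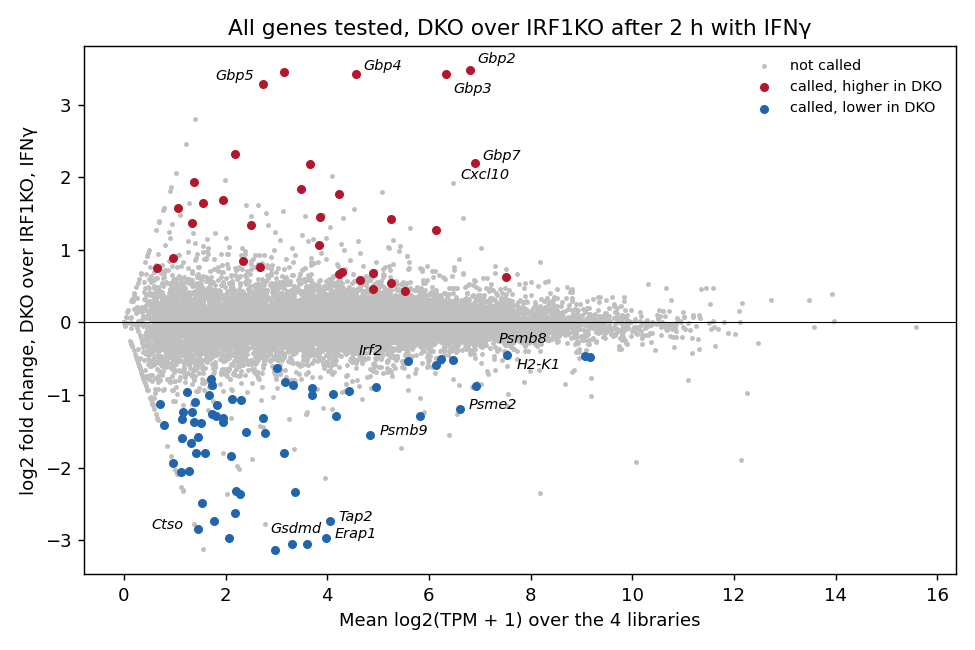
Each point is 1 of 11842 genes, with the mean log2(TPM + 1) over the 4 libraries on the horizontal axis and the log2 fold change of DKO over IRF1KO cells under IFNγ on the vertical axis. The 32 genes called higher (red) are led by Gbp genes and the 65 called lower (blue) reach −3.14 in Acadl, which is not labelled, while Irf2, Psmb8 and Cxcl10 are labelled though not called.

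The guanylate-binding proteins (Gbps) are interferon-induced GTPases that gather on intracellular pathogens and their vacuoles. Of the 10 members that passed the filter, 7 rose in DKO cells and none fell, with a median log2 fold change of 2.19. Gbp2 (chr3:142620663-142638008, GRCm38.p6) had 380.4 and 364 TPM in DKO cells, against 29.4 and 35.8 TPM in IRF1KO cells. That is a log2 fold change of 3.48 ± 0.41 (SE, adjusted p = 0.000134), with means of 372 ± 11 and 32.6 ± 4.5 TPM (SD, n = 2 each). Gbp3 had 237 and 296 TPM in DKO cells, against 18.2 and 30.8 TPM in IRF1KO cells (log2 fold change 3.43 ± 0.25, adjusted p = 8.37e-07). Gbp4 had 57.8 and 102.5 TPM in DKO cells, against 5.16 and 7.57 TPM in IRF1KO cells (3.42 ± 0.28, adjusted p = 2.21e-06). In each of these genes the lowest DKO library stood several times above the highest IRF1KO library.

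Gbp5, which in mouse macrophages promotes inflammasome assembly, was near 1 TPM in IRF1KO cells and well above it in DKO cells, with 17.7 and 22.2 TPM in DKO cells and 0.79 and 1.52 TPM in IRF1KO cells (3.29 ± 0.22, adjusted p = 4.66e-07). Gbp7 had 221 and 295 TPM in DKO cells, against 48.1 and 63.1 TPM in IRF1KO cells, so that its log2 difference of 2.19 ± 0.17 was smaller while its IRF1KO level was the highest of the family. Gbp9 had 17.7 and 37.5 TPM in DKO cells, against 3.87 and 6.18 TPM in IRF1KO cells (2.18 ± 0.32, adjusted p = 0.00147). Gbp8 had 14.7 and 27.4 TPM in DKO cells, against 2.99 and 7.76 TPM in IRF1KO cells (1.84 ± 0.32, adjusted p = 0.00769), a call that was lost without DKO replicate 2 or IRF1KO replicate 1. The other 3 tested members stayed low: Gbp6 had 4.04 and 5.70 TPM in DKO cells and 2.83 and 3.27 TPM in IRF1KO cells, Gbp11 stayed under 3 TPM, and Gbp10 was listed at 0 in 3 of the 4 libraries. Gbp2, Gbp3, Gbp5 and Gbp7 lie between positions 142496934 and 142638008 of chromosome 3, and Gbp4, Gbp8 and Gbp9 lie on chromosome 5. The positions of the members not called were not looked up. Since these paralogs share sequence, how RSEM split reads between them is uncertain.

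The immunity-related GTPases are another family of interferon-induced defence proteins. None of 12 tested members was called in limma, with 2 at an unadjusted p under 0.05, and their median log2 fold change was 0. Irgm1, a regulator of the family, had 361 and 432 TPM in DKO cells, against 311 and 309 TPM in IRF1KO cells (0.35 ± 0.13, adjusted p = 0.375). With the replicate block 1 member, Iigp1, was called lower in DKO cells (−1.06 ± 0.25, adjusted p = 0.0667 without and 0.0091 with the block). Whether the families differ was not tested.

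**Figure D2:**
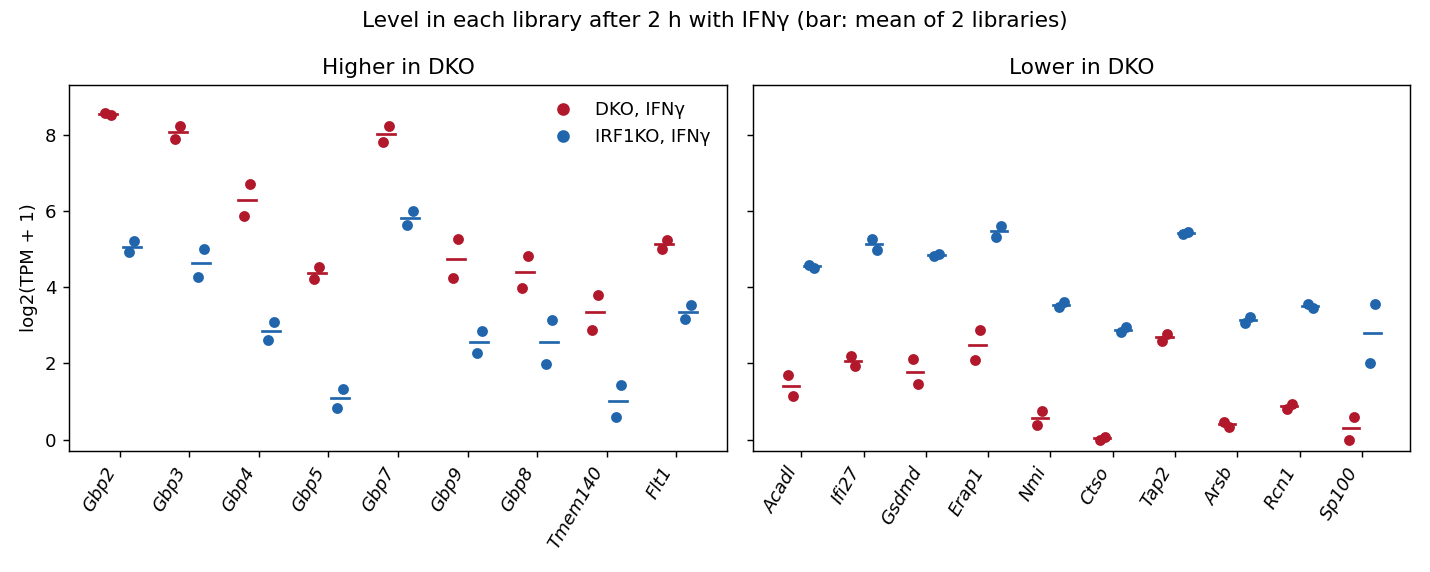
Levels as log2(TPM + 1) in each library of DKO (red) and IRF1KO cells (blue) under IFNγ, with bars at the means of 2 libraries, for 9 genes called higher (left) and 10 called lower (right), those with the largest fold changes among called genes that averaged 5 TPM or more where they were higher, the miR-155 entry left out. Genes were taken only if both DKO libraries lay on one side of both IRF1KO libraries, so that separation is not a result. Mean levels were 372 against 32.6 TPM in Gbp2 and 0.025 against 6.4 TPM in Ctso.

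Outside the Gbp family, Flt1 and Tmem140 were among the genes with the largest rises. Flt1, a receptor for vascular endothelial growth factor, had 30.9 and 37.0 TPM in DKO cells, against 7.98 and 10.6 TPM in IRF1KO cells (1.77 ± 0.20, adjusted p = 0.00012). Tmem140 had 6.4 and 12.9 TPM in DKO cells, against 0.51 and 1.72 TPM in IRF1KO cells (2.32 ± 0.37, adjusted p = 0.00335), and lost its call without DKO replicate 2 or IRF1KO replicate 1. An entry named for the star strand of miR-155 was also called higher, but its identifier matched no accession in the RefSeq gene table used, and its values are not given. Ptgs2, the inducible cyclooxygenase, had 3.25 and 5.39 TPM in DKO cells, against 0.65 and 0.69 TPM in IRF1KO cells (1.64 ± 0.31, adjusted p = 0.0154). It was the only called gene of a list of 18 NF-kB feedback genes and early genes of the response to lipopolysaccharide. Its call was lost without DKO replicate 2 or either IRF1KO library.

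In the machinery that makes and loads peptides for MHC class I, Erap1 and Tap2 fell and most other genes did not pass the test. Erap1, the aminopeptidase that trims peptides in the endoplasmic reticulum, had 3.26 and 6.39 TPM in DKO cells, against 39.0 and 47.3 TPM in IRF1KO cells (log2 fold change −2.97 ± 0.24, adjusted p = 1.84e-06). Tap2, a subunit of the peptide transporter, had 5.01 and 5.86 TPM in DKO cells, against 41.1 and 42.3 TPM in IRF1KO cells (−2.73 ± 0.29, adjusted p = 4.45e-05). Its partner subunit Tap1 had 46.6 and 61.3 TPM in DKO cells, against 65.8 and 79.6 TPM in IRF1KO cells (−0.43 ± 0.17, adjusted p = 0.443). The groups did not overlap in either subunit, but only Tap2 was called. None of the other 9 members of the list of 11 was called, and its median was −0.09. The chaperone Tapbp had 108 and 101 TPM in DKO cells and 112 and 98.4 TPM in IRF1KO cells. Tapbpl, singled out after its values were seen, was uneven between the DKO libraries, at 46.2 and 8.43 TPM. Its lack of a call therefore does not show an unchanged level.

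Of 6 immunoproteasome and PA28 genes, 3 fell and the median was −0.94. Psmb9, an interferon-induced catalytic subunit, had 11.8 and 21.1 TPM in DKO cells, against 43.4 and 53.7 TPM in IRF1KO cells (−1.55 ± 0.23, adjusted p = 0.00142). Psme1 and Psme2, the subunits of the PA28 activator, were lower as well. Psme1 had 36.5 and 34.0 TPM in DKO cells, against 90.1 and 85.4 TPM in IRF1KO cells (−1.29 ± 0.21, adjusted p = 0.00335). Psme2 had 68.5 and 59.1 TPM in DKO cells, against 145 and 148 TPM in IRF1KO cells (−1.19 ± 0.25, adjusted p = 0.0373); its call was lost when any of the 4 libraries was left out. Psmb10, the third inducible catalytic subunit, had 58.6 and 49.7 TPM in DKO cells and 95.2 and 81.5 TPM in IRF1KO cells and was called only with the replicate block (−0.70 ± 0.23, adjusted p = 0.296 without and 0.0332 with it). Psmb8 had 124 and 134 TPM in DKO cells, against 158 and 173 TPM in IRF1KO cells (−0.35 ± 0.12, adjusted p = 0.333). None of 26 subunits of the constitutive proteasome was called, none was at an unadjusted p under 0.05, and all lay between −0.20 and 0.14.

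**Figure D3:**
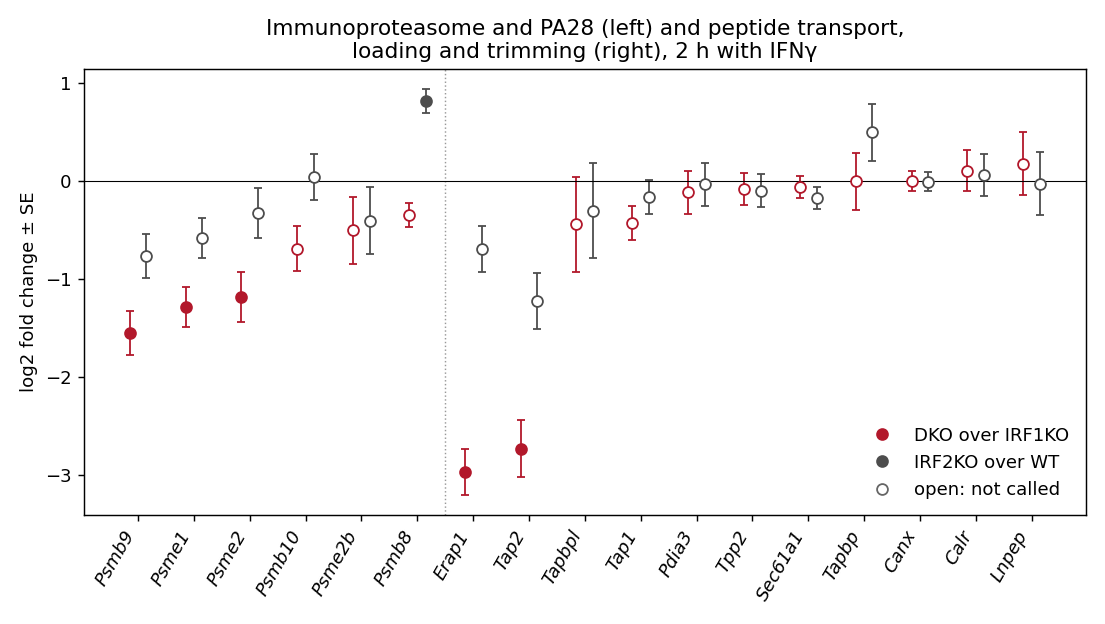
Log2 fold changes with SE under IFNγ for DKO over IRF1KO cells (red) and IRF2KO over WT cells (grey), with filled points for called genes. Erap1 stands at −2.97 and −0.70 and Psmb8 at −0.35 and 0.82, the 2 genes of this plot in which the difference between the contrasts was itself called.

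Of 10 class I genes tested 1 fell and none rose, with a median of 0.04. H2-K1, a classical class I heavy chain, had 155 and 163 TPM in DKO cells, against 225 and 209 TPM in IRF1KO cells (−0.45 ± 0.10, adjusted p = 0.0373), a call lost when any of the 4 libraries was left out. H2-D1 had 735 and 793 TPM in DKO cells, against 929 and 975 TPM in IRF1KO cells, and was called with the replicate block (−0.32 ± 0.08, adjusted p = 0.104 without and 0.0425 with it). B2m, the light chain, had 1181 and 1502 TPM in DKO cells, against 1337 and 1328 TPM in IRF1KO cells, so that the ranges overlap. Nlrc5, the transactivator of class I genes, had 24.9 and 38.5 TPM in DKO cells and 29.7 and 37.3 TPM in IRF1KO cells (adjusted p = 0.96). H2-T23, singled out after its values were seen, was uneven between the DKO libraries, at 8274 and 1558 TPM in DKO cells and 4051 and 3862 TPM in IRF1KO cells. Class I genes share much sequence, so their separate levels are uncertain. Of 12 MHC class II presentation genes only Ctss was called, the protease that degrades the invariant chain, with 427 and 550.5 TPM in DKO cells and 668 and 676 TPM in IRF1KO cells (−0.47 ± 0.10, adjusted p = 0.0379). It lost its call without DKO replicate 1 or either IRF1KO library.

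Gsdmd, the pore-forming executioner of pyroptosis, fell to 3.34 and 1.74 TPM in DKO cells, against 27.2 and 28.2 TPM in IRF1KO cells (−3.06 ± 0.24, adjusted p = 1.93e-06). It was 1 of 2 genes called, both lower, among 21 cell death genes, whose median was 0.04. Casp4, the caspase (caspase-11 in mice) that cleaves gasdermin D after sensing cytosolic lipopolysaccharide, had 35.6 and 25.3 TPM in DKO cells, against 28.0 and 21.5 TPM in IRF1KO cells, with overlapping ranges (adjusted p = 0.918). Mlkl, the pore former of necroptosis, had 36.7 and 35.6 TPM in DKO cells, against 64.6 and 57.7 TPM in IRF1KO cells (−0.74 ± 0.17); its adjusted p was 0.0526, and 0.00245 with the replicate block.

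Acadl, Ctso, Arsb and Rcn1 were among the genes with the largest falls. Acadl, a mitochondrial acyl-CoA dehydrogenase of fatty acid oxidation, had 2.22 and 1.20 TPM in DKO cells, against 23.1 and 21.8 TPM in IRF1KO cells (−3.14 ± 0.26, adjusted p = 2.38e-06). This was the largest fall of the 65 genes on the log2(TPM + 1) scale, which understates the change of low genes such as Ctso. Ctso, cathepsin O, was listed at 0 and 0.05 TPM in DKO cells, against 6.10 and 6.70 TPM in IRF1KO cells (−2.85 ± 0.17, adjusted p = 2.04e-07). Arsb, a lysosomal sulfatase that degrades glycosaminoglycans, had 0.39 and 0.26 TPM in DKO cells, against 7.36 and 8.24 TPM in IRF1KO cells (−2.73 ± 0.23). Rcn1, a calcium-binding protein of the endoplasmic reticulum, had 0.76 and 0.91 TPM in DKO cells, against 10.7 and 10 TPM in IRF1KO cells (−2.63 ± 0.16). Of 23 genes of fatty acid oxidation and lysosomal cathepsins, Acadl, Ctso and Ctsl were the 3 called, all lower, and the median was −0.02. Ctsl differed little, with 419 and 493 TPM in DKO cells and 622 and 635 TPM in IRF1KO cells (−0.47 ± 0.10, adjusted p = 0.0288), and lost its call without DKO replicate 1 or either IRF1KO library.

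Sensors of viral RNA were among the genes that fell. Ifih1, which encodes MDA5, had 0.08 and 0.05 TPM in DKO cells, against 3.39 and 3.50 TPM in IRF1KO cells (−2.06 ± 0.15, adjusted p = 8.37e-07). Ddx58, which encodes RIG-I, had 0.39 and 0.89 TPM in DKO cells, against 3.12 and 3.26 TPM in IRF1KO cells (−1.37 ± 0.20, adjusted p = 0.00121). Tlr3, the endosomal sensor, had 0.37 and 0.45 TPM in DKO cells, against 3.03 and 3.95 TPM in IRF1KO cells (−1.66 ± 0.19, adjusted p = 0.000134). All 3 were under 1 TPM in both DKO libraries and above 3 TPM in both IRF1KO libraries. Of 27 sensing genes these 3 fell and 1 rose, with a median of −0.01. The gene that rose was Nod2, a sensor of bacterial muramyl dipeptide, with 5.14 and 6.58 TPM in DKO cells and 3.03 and 2.55 TPM in IRF1KO cells (0.85 ± 0.17, adjusted p = 0.0211), a call lost without DKO replicate 2 or either IRF1KO library.

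Of 45 antiviral genes of the type driven by ISGF3, the transcription factor complex of type I interferon signalling, 4 fell and none rose, and the median was −0.24. Nmi, which binds STAT proteins, had 0.32 and 0.69 TPM in DKO cells, against 10.1 and 11.3 TPM in IRF1KO cells (−2.97 ± 0.20, adjusted p = 4.19e-07). Ifi27, a small interferon-induced membrane protein, had 3.60 and 2.82 TPM in DKO cells, against 37.6 and 30.5 TPM in IRF1KO cells (−3.06 ± 0.28, adjusted p = 7.7e-06). Epsti1 had 1.06 and 1.55 TPM in DKO cells, against 7.05 and 7.32 TPM in IRF1KO cells (−1.84 ± 0.23). The fourth was Phf11b, with 2.21 and 2.66 TPM in DKO cells and 7.20 and 5.25 TPM in IRF1KO cells, a call lost without DKO or IRF1KO replicate 1. With the replicate block 10 of the 45 were called, all lower. Rsad2, which encodes the antiviral protein viperin, was close to 0 in both groups, with 0.46 and 0.08 TPM in DKO cells and 0.05 and 0 TPM in IRF1KO cells.

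Of 9 interferon-responsive PARPs and partners, 3 fell. Parp14, a mono-ADP-ribosyltransferase, had 1.16 and 1.12 TPM in DKO cells, against 9.05 and 11 TPM in IRF1KO cells (−2.36 ± 0.20, adjusted p = 3.62e-06). Parp9 had 18.97 and 25.4 TPM in DKO cells, against 40.9 and 42.2 TPM in IRF1KO cells (−0.89 ± 0.15), and lost its call without DKO replicate 1 or IRF1KO replicate 2. Parp12, at 0.48 and 0.43 TPM in DKO cells and 2.42 and 2.41 TPM in IRF1KO cells, lost its call in 3 of the 4 fits without 1 library. Of 12 nuclear body and TRIM genes Sp100, Sp110 and Trim34a fell. Sp110 had 3.01 and 3.11 TPM in DKO cells, against 10.2 and 11.2 TPM in IRF1KO cells (−1.53 ± 0.16, adjusted p = 3.23e-05). Sp100, a nuclear body protein, had 0 and 0.51 TPM in DKO cells, against 3.05 and 10.8 TPM in IRF1KO cells (−2.49 ± 0.42, adjusted p = 0.00565), and its fold change ran from −3.26 to −1.72 when 1 library was left out, with the call lost without DKO replicate 1 or IRF1KO replicate 2.

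No ligand of immune checkpoints or costimulation was called among 10 tested, though the median was 0.59 and 5 were at an unadjusted p under 0.05 in limma. Over all genes 8.68% were at such a p. Cd274, which encodes PD-L1, had 71.7 and 77.3 TPM in DKO cells, against 51.0 and 38.2 TPM in IRF1KO cells (0.74 ± 0.24, adjusted p = 0.273). With the replicate block it was called (adjusted p = 0.0112), as were Cd40, Cd80, Lgals9 and Pvr, all higher in DKO cells. In each of these 5 genes, taken for their calls, both DKO libraries lay above both IRF1KO libraries. Groups stood apart, in either direction, in 31.6% of all genes. None of 23 cytokines and chemokines was called (4 at an unadjusted p under 0.05). Cxcl10, a chemokine for T cells, had 234 and 127 TPM in DKO cells, against 71.4 and 27.7 TPM in IRF1KO cells (1.93 ± 0.58, adjusted p = 0.221), apart in level but uneven within each group. None of 25 other IFNγ-responsive genes (5 at an unadjusted p under 0.05), 28 cell cycle genes (7) or 22 stress and immediate early genes (3) was called. The cell cycle list does not hold Tk1, Kif23 and E2f2, which were called lower in DKO cells (−0.52, −0.50 and −0.63). Their calls were lost whichever library was left out. With the replicate block the cytokine Tnfsf13b, the IFNγ-responsive genes Fcgr4 and Slc15a3, Ccnd1 of the cell cycle list, Nfkbie of the NF-kB list and Irf5 were called higher, and Il15ra lower, in DKO cells.

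The 4 libraries held 10951 to 11101 genes at 1 TPM or more, and replicates correlated at r = 0.974 in DKO and 0.983 in IRF1KO cells across genes, which are not independent replicates. As to identity, Itgax (CD11c) had 35.1 and 39.7 TPM in DKO cells, against 55.2 and 55.2 TPM in IRF1KO cells (adjusted p = 0.0614, and 0.0201 with the replicate block), while the dendritic cell genes Flt3 and Clec9a were at or near 0 in all 4 and Zbtb46 was between 1.06 and 2.35 TPM. Of 16 dendritic cell markers 7 passed the filter and Cd24a fell, to 1.41 and 1.5 TPM in DKO cells, against 5.19 and 5.05 TPM in IRF1KO cells (adjusted p = 0.0166), a call lost whichever of the 4 libraries was left out. The list of 16 summed to 963 to 1002 TPM in DKO cells and 861 to 958 TPM in IRF1KO cells. On it 5 markers were at 0 in all 4 libraries, while Batf3 had 64.8 and 49.1 TPM in DKO cells. Of 12 macrophage and monocyte markers tested none was called (2 at an unadjusted p under 0.05). The summed level of their list was 3231 to 3265 TPM in DKO cells and 3420 to 3809 TPM in IRF1KO cells. Csf1r and Lyz2 were above 200 TPM in all 4 libraries, while 1 of 14 markers with values was at 0 in all 4. Of 14 lymphocyte markers 10 were at 0 in all 4 libraries, Cd3e among them, and the list summed to 11.46 to 12.4 TPM in DKO cells and 10.7 to 12.6 TPM in IRF1KO cells. Of 12 fibroblast and stromal markers 9 were at 0, with sums of 0.4 to 0.81 TPM in DKO cells and 0.43 to 1.01 TPM in IRF1KO cells. The summed level of the cell cycle list was 3480 to 4015 TPM in DKO cells and 4084 to 4529 TPM in IRF1KO cells, and its part in the results was not tested. In bulk RNA, fewer cells of a kind and less RNA per cell cannot be told apart.

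The same 2 lines were also compared in media, which addresses whether the differences were already there without interferon. In media 79 genes (0.667%) were called, 25 higher (0.211%) and 54 lower (0.456%), with 201 under the replicate block and 46, 38, 52 and 49 without DKO replicates 1 and 2 and IRF1KO replicates 1 and 2. Of the 32 genes called higher under IFNγ all had the same sign in media and 16 were called there. Of the 65 called lower, 64 had the same sign and 45 were called, Oprm1 being the exception in sign; no gene was called in opposite directions. These are other libraries of the same lines, so they do not separate the line from the gene. The share of all genes tested with the same sign was not computed. The counts of shared sign, here and for the contrasts below, therefore have no background. For Gbp2 the levels in media were 214 and 101 TPM in DKO cells, against 0.72 and 0.43 TPM in IRF1KO cells, a log2 fold change of 6.56 ± 0.41. The estimate for Gbp2 was thus larger in media than the 3.48 under IFNγ, but the 2 were called apart only with the replicate block (below). The Gbp2 level under IFNγ was higher than in media in both lines. Gbp3 had 213 and 197 TPM in DKO cells in media, against 2.74 and 5.60 TPM in IRF1KO cells (5.37 ± 0.25), and Gbp7 had 155 and 159 TPM in DKO cells, against 9.94 and 11.7 TPM in IRF1KO cells (3.74 ± 0.17).

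Tested directly, no gene was called for a difference between IFNγ and media (0% of genes tested, with 194 at an unadjusted p under 0.05 in limma). The smallest adjusted p among the Gbps was that of Gbp7, with a difference of −1.55 ± 0.23 (adjusted p = 0.0762, and 0.0334 with the replicate block). Gbp2 had −3.08 ± 0.57 (0.204, and 0.0348 with the block) and Gbp3 −1.94 ± 0.35 (0.204, and 0.0759 with the block). For the genes that fell, values in media varied: Oprm1 had the opposite sign, and Sp100 had −1.45 in media where it had −2.49 under IFNγ. Gsdmd had a log2 fold change of −3.14 ± 0.24 in media and Erap1 −3.32 ± 0.24. Tap2 had −3.43 ± 0.29 in media, with 2.73 and 2.02 TPM in DKO cells and 35.4 and 35.1 TPM in IRF1KO cells.

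Under IFNα 100 genes (0.844%) were called between the lines, 44 higher (0.372%) and 56 lower (0.473%), with 210 under the replicate block, 60 without DKO replicate 1 and 52 without IRF1KO replicate 1. All 32 genes called higher under IFNγ had the same sign, 18 with a call, and so did 62 of the 65 called lower, 40 with a call. The exceptions were Hist1h4f, Parp9 and Phf11b. The difference between the interferons was called for 9 genes (0.076%), all with a smaller or opposite value under IFNγ, with 265 genes at an unadjusted p under 0.05. The largest was Rsad2, where DKO cells had 23.3 and 22.02 TPM under IFNα, against 0.44 and 0.83 TPM in IRF1KO cells, while under IFNγ all 4 libraries were under 0.5 TPM (difference −3.57 ± 0.31, adjusted p = 6.74e-05). Ifit1, which binds viral RNA, had 82.3 and 80.1 TPM in DKO cells under IFNα, against 7.66 and 9.44 TPM in IRF1KO cells, and was under 1 TPM in all 4 libraries under IFNγ (−2.60 ± 0.32, adjusted p = 0.00152). Cmpk2, the gene next to Rsad2, had 27.1 and 33.8 TPM in DKO cells under IFNα, against 2.88 and 3.80 TPM in IRF1KO cells (−2.52 ± 0.33, adjusted p = 0.0033). Ifit2, Ifit3, Mx2, Gm14446 and I830012O16Rik had the same pattern, with differences from −2.60 to −1.75. Hist1h4f, a histone gene, was listed at 0 in both DKO libraries and at 2.91 and 2.74 TPM in IRF1KO libraries under IFNγ, and at 0.94 and 0.64 TPM in DKO and 0 in IRF1KO libraries under IFNα; its call was lost whichever of the 8 libraries was left out. All 9 calls were lost at a pseudocount of 0.1, and 5 of the 9 were kept without DKO IFNγ replicate 1, IRF1KO IFNγ replicate 2, DKO IFNα replicate 2 or IRF1KO IFNα replicate 1.

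The same question in cells that keep IRF1 is addressed by IRF2KO against WT cells under the same IFNγ dose. The groups of this contrast share no library with DKO against IRF1KO. In all contrasts, however, a gene's spread came from the same fit of 24 libraries, so overlapping calls are not independent of each other. IRF2KO against WT called 95 genes (0.802%), 37 higher (0.312%) and 58 lower (0.49%), with 259 under the replicate block. The count was 46, 57, 58 and 52 without IRF2KO replicates 1 and 2 and WT replicates 1 and 2. Of the 32 genes higher in DKO cells 31 had the same sign and 14 were called. Of the 65 lower ones 64 had the same sign and 37 were called; Bcat1 and Phf11b were the exceptions in sign. The 4 contrasts are IFNγ, media and IFNα for DKO against IRF1KO, and IRF2KO against WT. Called in all 4 were 9 of the 32 higher and 28 of the 65 lower genes, out of 11842 tested. Gbp3, Gbp4, Gbp5, Gbp7, Gsdmd, Acadl, Ctso, Ifih1 and Nmi were among them. Genes called in none of the other 3 numbered 9 of the 32 higher and 13 of the 65 lower. A call in a single contrast is not a tested difference between contrasts. Of these genes only Hist1h4f was called in a difference of differences.

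Gsdmd had 5.21 and 3.07 TPM in IRF2KO cells, against 39.3 and 33.4 TPM in WT cells (−2.89 ± 0.24), where DKO over IRF1KO cells gave −3.06. Acadl had 1.67 and 1.32 TPM in IRF2KO cells, against 22.1 and 19.4 TPM in WT cells (−3.12 ± 0.26). Gbp2 had 1099 and 833 TPM in IRF2KO cells, against 334 and 344 TPM in WT cells (1.49 ± 0.41, adjusted p = 0.144, and 0.0221 with the replicate block), so its IRF2KO libraries were above those of the other 3 genotypes. Its difference of 1.99 between the contrasts was not called. Tap2 had 39.3 and 24.2 TPM in IRF2KO cells, against 72.5 and 74.9 TPM in WT cells (−1.23 ± 0.29, adjusted p = 0.0656, and 0.014 with the replicate block), and the difference from the −2.73 of DKO over IRF1KO cells was not called either.

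The difference between the 2 contrasts was called for 5 genes (0.0422%), with 196 at an unadjusted p under 0.05. Erap1 had 41.8 and 31.8 TPM in IRF2KO cells, against 61.6 and 58.1 TPM in WT cells, a log2 fold change of −0.70 ± 0.24 where it was −2.97 between DKO and IRF1KO cells (difference −2.27 ± 0.33, adjusted p = 0.0149). Psmb8 was higher in IRF2KO cells, with 446 and 425 TPM in IRF2KO cells and 244 and 250.4 TPM in WT cells (0.82 ± 0.12, adjusted p = 0.002), while it was not called between DKO and IRF1KO cells (difference −1.17 ± 0.17, adjusted p = 0.0149). Rsad2 had 11.7 and 7.64 TPM in IRF2KO cells, against 0.09 and 0.04 TPM in WT cells (difference −3.00 ± 0.31, adjusted p = 0.000731), and kept its call whichever of the 8 libraries was left out. Cmpk2 had 13.1 and 10.2 TPM in IRF2KO cells, against 0.47 and 1.11 TPM in WT cells (difference −2.49 ± 0.33). The calls of Rsad2 and Cmpk2 were both lost at a pseudocount of 0.1, and also with the compared groups alone. The fifth entry, TRNA_Asp, was listed at 7.54 and 0 TPM in DKO cells, 0 in IRF1KO and IRF2KO cells and 8.64 and 17.9 TPM in WT cells. The count of 5 fell to 1 without either IRF1KO library, IRF2KO replicate 1 or WT replicate 1, and to 3 without DKO replicate 1, IRF2KO replicate 2 or WT replicate 2.

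**Figure D4:**
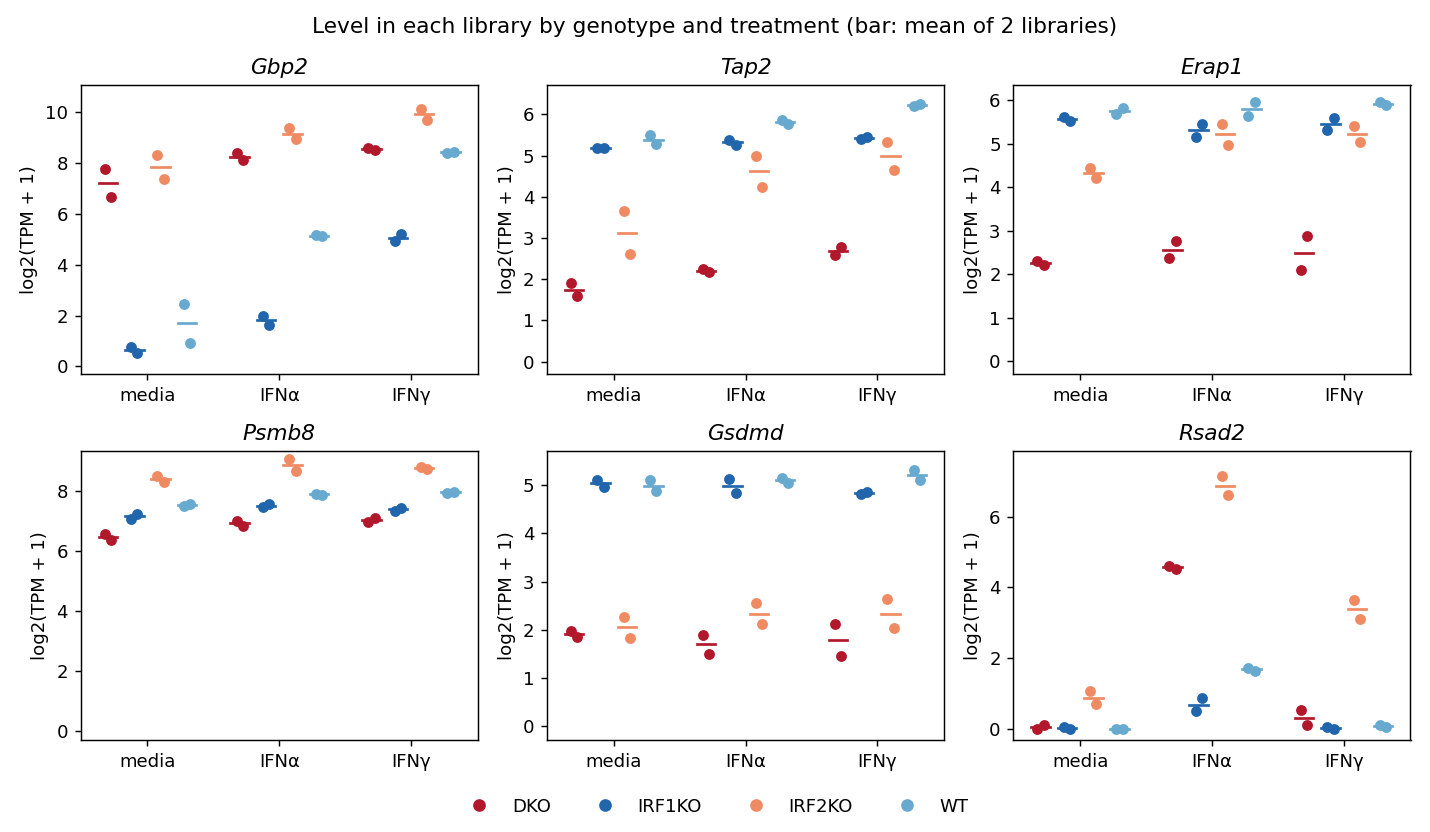
Levels as log2(TPM + 1) of 6 genes in each library of DKO, IRF1KO, IRF2KO and WT cells (left to right) in media, IFNα and IFNγ, with bars at the means of 2 libraries. Gsdmd is low in DKO and IRF2KO cells in every treatment, Erap1 and Tap2 are lowest in DKO cells, Psmb8 is highest in IRF2KO cells, and Rsad2 is above 5 TPM in DKO cells under IFNα and in IRF2KO cells under both interferons.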

How the data were processed

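The authors deposited 1 table of TPM values per gene, used as given; TPM is a share of each library and keeps no read totals, so depth is unknown and no count test was run. The submitters' processing notes name bcl2fastq 2.20, Bowtie 0.12.2 and RSEM, and the builds mm10 and GRCm38 without their roles. Its 41346 entries were summed to 31427 gene symbols. The 6 single libraries of the series were not used here.

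Values on the log2(TPM + 1) scale were fitted in limma 3.58.1 (R 4.3.3) with 1 mean for each of 12 groups of 2 libraries. The prior variance followed the mean. Genes needed 1 TPM or more in 2 or more of 24 libraries, which 11842 met, leaving 12 residual degrees of freedom. Tests are two-sided, p-values are Benjamini-Hochberg adjusted over all genes, and a gene is called at an adjusted p under 0.05. The same fit gave 3 differences of differences. The method was tested on simulated data. Plots used matplotlib 3.10.9, sequences were handled in Python 3.11.15 with pandas 2.3.3, and 120 of 122 genes matched RefSeq by accession.

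Titles give each replicate number 1 date-like code, so numbers were taken to pair samples: deviations from group means correlated over 0.1 in 56 of 66 pairs of groups (median 0.233), with r = 0.206 for DKO and IRF1KO under IFNγ. A code covers a single library of every group, which leaves no replicates for a test inside it.

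Named genes are the 10 called in each direction with the largest fold changes (groups not overlapping, the higher one averaging 5 TPM or more), up to 4 called members of each of 25 lists with the smallest p, 5 per direction from each difference of differences, and a set fixed by name. Other genes named were chosen after their values were seen. Some genes that met the rule are not reported here. Members and lists were chosen with earlier results of these data known. The fit was repeated with the replicate block, without each library in turn, with the compared groups alone, with pseudocounts of 0.1 and 5, with median-ratio or quantile scaling, with a robust prior, without the filter or with one on a mean of 5 TPM, and with a fold threshold of 2.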

Additional observations from a re-analysis of the deposited data

Results flagged for a closer look

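For 14 gene and contrast pairs the difference between DKO and IRF1KO cells under IFNγ departed, in a test of the difference itself, from that in another setting; values are differences of log2 fold changes. Against IFNα they were −3.57 for Rsad2, −2.77 for Hist1h4f, −2.60 for Ifit1, −2.60 for Gm14446, −2.60 for I830012O16Rik, −2.52 for Cmpk2, −2.25 for Ifit3, −2.10 for Ifit2 and −1.75 for Mx2. Rsad2, Ifit1, Gm14446, I830012O16Rik and Cmpk2 kept the call whichever of the 8 libraries was left out, while Ifit2 lost it in 4 such fits, Ifit3 and Mx2 in 5 and Hist1h4f in 8. Against IRF2KO over WT cells under IFNγ they were −3.00 for Rsad2, −2.49 for Cmpk2, −2.27 for Erap1, −1.17 for Psmb8 and 5.30 for TRNA_Asp. Of these Rsad2 kept its call in all 8 such fits, and Cmpk2 lost it in 4, Erap1 and TRNA_Asp in 6 and Psmb8 in 7. A pseudocount of 0.1 removed the calls of Rsad2, Cmpk2 and TRNA_Asp against IRF2KO over WT cells, and every call against IFNα.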

How the results depend on the processing

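No called value changed sign in any alternative run. The count of 97 calls for DKO against IRF1KO cells under IFNγ was 55 with a mean of at least 5 TPM (59 of the 97 genes remain in that fit), 270 with the replicate block, 1 (Gbp2) with the 4 libraries fitted alone, which leaves 2 libraries a group to set the spread, and 47 to 87 when 1 library was left out; the lone library is then assumed to vary like the other groups. Pseudocounts of 0.1 and 5, no filter, median-ratio and quantile scaling and robust variances gave 96 to 116 calls and kept 88 to 96 of the 97. For the difference between IFNγ and media, 0 calls became 1 without a filter, 1 with median-ratio scaling, 2 with the replicate block and 0 to 2 without 1 library. For the difference between IFNγ and IFNα, 9 calls became 0 at a pseudocount of 0.1, 4 with the compared groups alone and 5 to 12 without 1 library (11 with the replicate block). For the difference from IRF2KO against WT cells, 5 calls became 2 at a pseudocount of 0.1, 0 with the compared groups alone and 1 to 5 without 1 library (5 with the replicate block). The cause was not tested for these shifts. Between DKO and IRF1KO cells under IFNγ, the replicate block changed the calls given beside the results in the report and no other call of a gene named there; in the other contrasts it also added calls of named genes that are not listed, such as Psme1 in IRF2KO against WT cells (adjusted p = 0.351 without and 0.0238 with it) and the Gbp2 difference between IFNγ and IFNα (0.111 and 0.0121). TPM gives no depth, so values near 0 have no counting interval.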

Other observations

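Some of the other called genes, chosen here after their values were seen, encode myeloid surface and secreted proteins. Trem1, a receptor that amplifies inflammatory signals, had 25.8 and 20.2 TPM in DKO cells, against 9.86 and 6 TPM in IRF1KO cells (log2 fold change 1.45 ± 0.26, SE, adjusted p = 0.0105). Cst7, which encodes the protease inhibitor cystatin F, had 67.3 and 57.1 TPM in DKO cells, against 26.8 and 18.6 TPM in IRF1KO cells (1.43 ± 0.24), and Adam8, a membrane metalloprotease, had 114 and 104 TPM in DKO cells, against 40.8 and 48.7 TPM in IRF1KO cells (1.27 ± 0.24). In the other direction, Mgl2, a C-type lectin, had 71.3 and 109 TPM in DKO cells, against 161 and 164 TPM in IRF1KO cells (−0.88 ± 0.16), and Chil3, a chitinase-like protein, had 0.39 and 0.84 TPM in DKO cells, against 3.80 and 3.78 TPM in IRF1KO cells (−1.58 ± 0.22). The RNA helicase gene Mov10 had 3.08 and 4.57 TPM in DKO cells, against 14.5 and 16.7 TPM in IRF1KO cells (−1.80 ± 0.19). Chil3 and Mov10 were called in all 4 contrasts named in the report, as were Cst7 and Mgl2, while Adam8 was called under IFNγ between DKO and IRF1KO cells alone, or also under IFNα with the replicate block (adjusted p = 0.0932 without and 0.0497 with it). Trem1 and Cst7 lost their calls without DKO replicate 1 or IRF1KO replicate 2, Mgl2 without DKO replicate 1 or either IRF1KO library, and Adam8 whichever of the 4 libraries was left out.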
